A study of Mus musculus with 18 samples.

Results

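Nras, Araf, Braf, Map2k1 and Map2k2 encode a RAS GTPase, a pair of RAF kinases and the MEK kinases MEK1 and MEK2, and their mRNA was followed in mouse dendritic cells with and without an activated Braf allele. The genes were chosen by symbol, as the RAS, RAF, MEK and ERK genes of the core cascade, from the probe sets that carry 1 gene symbol. Of the 7 genes asked for, 5 were found, each with 1 probe set, and all 5 were tested among 15365 genes. Hras and Mapk3 were not analysed here. The probe sets were 10494857 for Nras, 10598956 for Araf, 10544219 for Braf, 10594447 for Map2k1 and 10364971 for Map2k2.

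RAS proteins are molecular switches that exchange factors load with GTP and GTPase activating proteins turn off. Loaded RAS recruits RAF kinases to the membrane, RAF phosphorylates MEK, and MEK phosphorylates the ERK kinases, which act on transcription factors and on feedback inhibitors such as the Dusp and Spry proteins. The V600E form of BRAF signals without RAS, and it recurs in Langerhans cell histiocytosis, the disease of dendritic-type cells that the study is about.

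The 18 samples were 1-colour arrays of biotin-labelled total RNA, 9 from WT and 9 from BRAF mice. All mice of both groups carried the BRAFV600E(CA-flox) allele, and the WT littermates had no CD11c-Cre, while the BRAF mice did. The Cre is driven by the promoter of CD11c, so recombination is directed to cells that express it, and the labels do not give the share of recombined cells. Each genotype had 3 arrays of BMDC, which are live CD11c+CD11b+ cells sorted from untreated cultures of femur marrow from mice of 5 weeks, and 2 arrays each of CD103 and CD11b cells of the lung and CD11b cells of the liver, sorted from the organs of unmanipulated mice of 14 weeks. No label says that replicates came from separate animals, so p-values cover the variation among these samples alone, part or all of which may be technical. An array probe set reads total Braf mRNA and does not separate the mutant from the normal allele, and in sorted bulk cells, fewer cells expressing a gene and less RNA per cell cannot be told apart.

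Values are log2 intensities, and levels of different genes are not set against each other because each probe set has its own brightness. Itgax, which encodes CD11c, had group means of 11.3 to 12.0 in all 8 groups. Itgae, which encodes CD103, stood at 11.8 in WT and 11.2 in BRAF lung CD103 cells and at 5.85 to 7.31 in the other groups. Itgam, which encodes CD11b, stood at 6.89 in WT and 8.30 in BRAF lung CD103 cells and at 9.81 to 11.3 elsewhere. Array medians lay between 93.7 and 113.2 intensity units. The spread of log2 values across probe sets was narrow on 2 arrays, with an interquartile range of 1.92 on replicate 3 of WT liver CD11b cells and 1.90 on replicate 2 of BRAF BMDC, against 2.41 to 2.99 on the rest. On that BMDC array 4 of the 5 genes were the lowest of their group, and on that liver array 5 of 5 were below the other WT liver array, while 50% and 51% of all genes tested were lowest there.

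Nras, the RAS GTPase of the set, showed the largest genotype difference of the 5 genes, in liver CD11b cells, and it did not pass the test. The WT liver arrays read 8.74 and 7.88, and the BRAF liver arrays read 9.15 and 8.81. Both BRAF arrays were above both WT arrays, which was also the case or the reverse for 38.5% of all genes in liver. The difference was 0.67 ± 0.29 (SE) on the log2 scale, a ratio of 1.59, with a 95% interval of 0.062 to 1.28 and a limma adjusted p of 0.318 (unadjusted p = 0.033, a level that 14.1% of all genes reached in liver). Without WT replicate 3, the array of narrow spread, it was 0.24, and without WT replicate 1 it was 1.10. The summed signal of the 5 measured monocyte markers was also higher in the BRAF liver arrays, at 8554.3 to 13383 against 5806.0 to 8210.6 in WT, with 4 of 5 markers positive and 0 called. Sums of neutrophil markers were likewise higher in BRAF liver without overlap. Those of CD11b type 2 dendritic cell, T cell, lung epithelium and endothelium markers were lower without overlap. The part of any of these in the Nras difference was not tested.

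In the lung CD11b cells Nras read 8.75 and 8.78 in WT and 8.87 and 9.48 in BRAF, so the genotypes did not overlap there either, as for 46.4% of all genes. The difference of 0.41 ± 0.29 had an interval of -0.20 to 1.02 and rested largely on 1 array, since without BRAF replicate 2 it was 0.10. In BMDC the 3 WT arrays read 9.14, 9.30 and 9.20 and the 3 BRAF arrays 9.03, 9.14 and 9.34. These overlapped, with a difference of -0.044 ± 0.23. In lung CD103 cells, where 28.4% of all genes had genotypes that did not overlap and 0 of these 5 did, the WT arrays read 8.72 and 8.97 and the BRAF arrays 8.42 and 8.94, a difference of -0.17 ± 0.29. Averaged over the 4 populations with equal weight, Nras differed by 0.22 ± 0.14 (ratio 1.16, interval 0.95 to 1.42, limma adjusted p = 0.761).

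**Figure D1:**
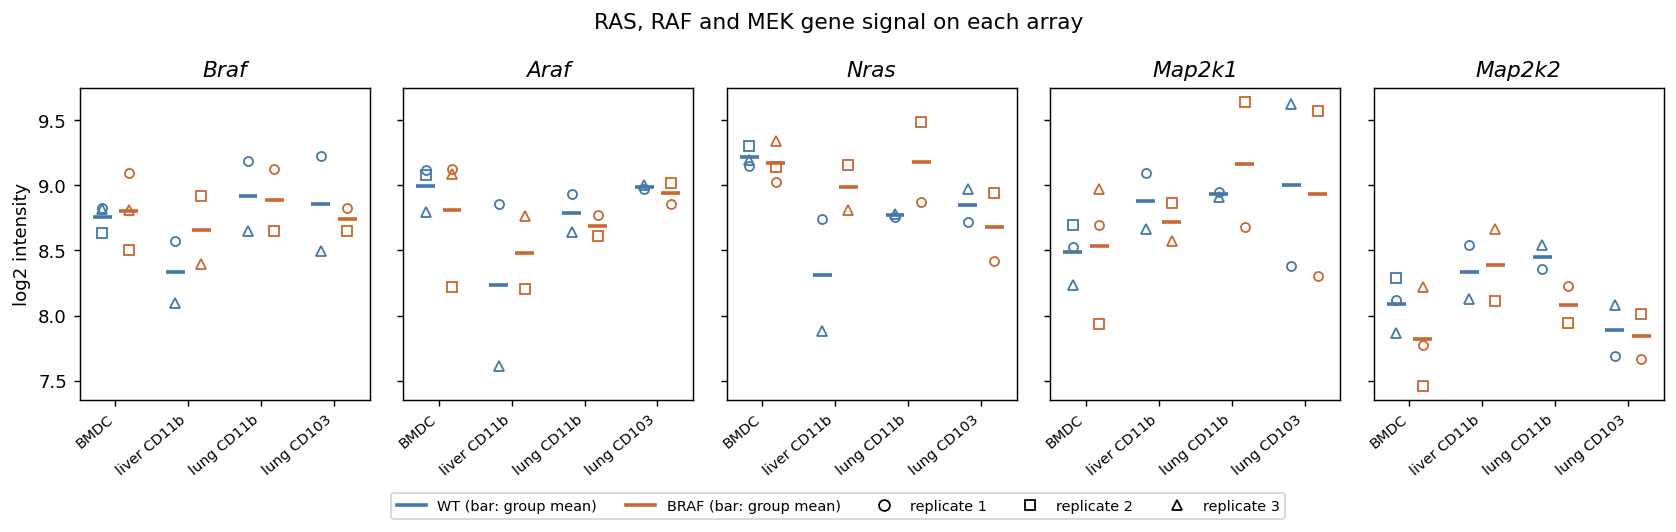
Log2 intensity (vertical axis) of Braf, Araf, Nras, Map2k1 and Map2k2 on each of the 18 arrays, by population and genotype, with bars at group means and symbols for the labels' replicate numbers. Nras in WT liver CD11b cells spans 7.88 to 8.74, and Map2k1 in lung CD103 cells splits into a low pair near 8.3 and a high pair near 9.6 that holds 1 array of each genotype.

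Braf, the kinase gene that carries the floxed allele, did not differ between genotypes beyond its spread in any population. In BMDC the WT arrays read 8.82, 8.63 and 8.82 and the BRAF arrays 9.09, 8.50 and 8.81. The BRAF values lie on both sides of the WT values, and the difference was 0.042 ± 0.25 (interval -0.48 to 0.57, limma adjusted p = 0.945). In liver CD11b cells WT read 8.57 and 8.09 and BRAF 8.91 and 8.39, a difference of 0.32 ± 0.30 that was 0.00649 after quantile normalization of the arrays. In lung CD11b cells the genotypes were nearly superimposed, at 9.18 and 8.65 in WT and 9.12 and 8.65 in BRAF. In lung CD103 cells WT read 9.22 and 8.50, and both BRAF arrays, at 8.83 and 8.65, lay between them. The mean difference over the 4 populations was 0.053 ± 0.14, a ratio of 1.04 with an interval of 0.838 to 1.28, so total Braf signal higher by more than 1.28-fold or lower than 0.838-fold on average lies outside the interval.

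Araf, the X-linked RAF paralog, gave its widest spread in liver. The WT liver arrays read 8.86 and 7.61 and the BRAF liver arrays 8.20 and 8.76, both inside the WT range. In BMDC WT read 9.11, 9.08 and 8.79 and BRAF 9.12, 8.22 and 9.08, and the single low value was on the array of narrow spread. The BMDC difference was -0.19 ± 0.30, and without that array it was 0.11. In lung CD11b cells Araf stood at 8.93 and 8.64 in WT and at 8.77 and 8.61 in BRAF. In lung CD103 cells it stood at 8.97 and 9.0 in WT and at 8.86 and 9.02 in BRAF, the tightest set of 4 arrays for this gene. The mean difference was -0.021 ± 0.17, a ratio of 0.986 (interval 0.762 to 1.28).

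Map2k1, which encodes MEK1, was the most variable of the 5 genes, with a range of 1.71 over the 18 arrays against 1.13 for Braf. In lung CD103 cells WT read 8.38 on replicate 1 and 9.62 on replicate 3, and BRAF read 8.30 on replicate 1 and 9.57 on replicate 2. The 2 arrays within each genotype thus lay over 1.2 log2 units apart while the genotype means differed by -0.065 ± 0.47. In lung CD11b cells WT read 8.95 and 8.91 and BRAF 8.68 and 9.64, so the BRAF arrays lay on either side of the WT arrays. In BMDC WT read 8.53, 8.69 and 8.23 and BRAF 8.70, 7.93 and 8.97, with the lowest value on the array of narrow spread. In liver CD11b cells WT read 9.09 and 8.66 and BRAF 8.86 and 8.57, a difference of -0.16 ± 0.47. The mean difference was 0.012 ± 0.22, with a ratio interval of 0.725 to 1.40, the widest of the 5 genes.

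Map2k2, which encodes MEK2, was lower in both BRAF than in both WT arrays of lung CD11b cells, at 8.22 and 7.94 against 8.36 and 8.54, in a comparison where 46.4% of all genes did not overlap. That difference was -0.37 ± 0.28 (interval -0.97 to 0.24) and did not pass. In BMDC WT read 8.12, 8.29 and 7.86 and BRAF 7.77, 7.46 and 8.22, a difference of -0.27 ± 0.23 with overlapping arrays. In liver CD11b cells WT read 8.54 and 8.12 and BRAF 8.11 and 8.66. In lung CD103 cells WT read 7.69 and 8.08 and BRAF 7.67 and 8.01, so each genotype had a low and a high array. The mean difference was -0.16 ± 0.14, a ratio of 0.897 (interval 0.735 to 1.10, limma adjusted p = 0.901).

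By limma with Benjamini-Hochberg adjustment over all genes, 0 of the 5 genes were called between genotypes in BMDC, where 0.521% of all genes tested were called, in liver CD11b cells (0.215%), in lung CD11b cells (0.338%) or in lung CD103 cells (0.0846%). The mean effect called 0 of 5 against 0.989% of all genes, and the F test for a genotype effect that differs between populations called 0 of 5 against 0.124%. An unadjusted p under 0.05 was found for 1 of the 5 in liver, Nras, and for 0 in BMDC, lung CD11b cells, lung CD103 cells, the mean effect and the F test, where 6.65%, 6.71%, 4.26%, 9.37% and 9.1% of all genes reached that level. Shares this small leave the count of 0 close to the background, and the intervals bound each gene's difference. The 5 genes had a median difference of -0.044 in BMDC, of 0.25 in liver, of -0.031 in lung CD11b cells and of -0.065 in lung CD103 cells, beside -0.085 to 0.079 for all genes tested. In liver 4 of the 5 were positive, as were 8650 of all 15365 genes, and in lung CD103 cells 0 of the 5, as were 5375 of all genes. These medians and counts turned with the setting. After quantile normalization the median of the 5 was 0.175 in BMDC, -0.0067 in liver and 0.096 in lung CD11b cells, with 2 of the 5 positive in liver and 2 in lung CD103 cells. Without the 2 arrays of narrow spread it was 0.11 in BMDC and -0.15 in liver, with 2 of the 5 positive in liver.

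**Figure D2:**
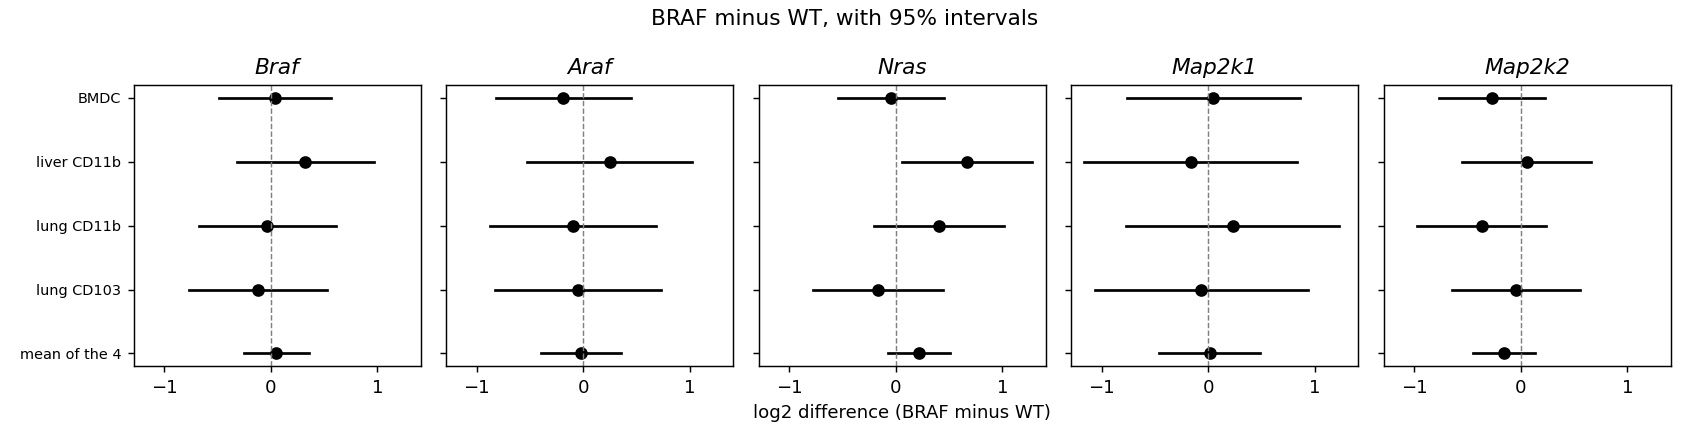
Difference of BRAF minus WT in log2 units (horizontal axis) for the 5 genes in the 4 populations and in their mean, with points for the estimates and lines for 95% intervals. The interval leaves out 0 for Nras in liver CD11b cells, at 0.062 to 1.28 before adjustment over genes, and holds 0 in the other rows.

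The 4 populations were then compared with both genotypes averaged at equal weight; culture, age, organ and sort differ between BMDC and organ cells and cannot be told apart. Nras was highest in BMDC, at 9.19, followed by lung CD11b at 8.97, lung CD103 at 8.76 and liver CD11b cells at 8.65. BMDC exceeded liver by 0.54 ± 0.18 (ratio 1.46, interval 1.11 to 1.92), with a limma adjusted p of 0.0656, and exceeded lung CD103 cells by 0.43 ± 0.18 (limma adjusted p = 0.137). No neighbours in that order differed beyond the test. Across the 6 BMDC arrays Nras stayed within 9.03 to 9.34, and 1 organ array reached above that, the BRAF lung CD11b array at 9.48.

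Araf followed the order lung CD103 at 8.96, BMDC at 8.90, lung CD11b at 8.74 and liver CD11b at 8.36. The gap of lung CD103 over liver was 0.60 ± 0.26 (limma adjusted p = 0.153), and that of BMDC over liver was 0.54 ± 0.23 (limma adjusted p = 0.146). Braf was also lowest in liver, at 8.49, with BMDC at 8.78, lung CD103 at 8.80 and lung CD11b at 8.90. Its largest gap was liver below lung CD11b, at -0.41 ± 0.21 (limma adjusted p = 0.289). Nras, Araf and Braf thus all had their lowest mean in liver CD11b cells, with the lowest liver value of each on the WT array of narrow spread. In BRAF arrays alone Nras was higher in liver, at 8.98, than in lung CD103 cells, at 8.68, while Araf and Braf were lowest in liver in either genotype. For Nras, lung CD103 minus liver was -0.045 after quantile normalization and -0.099 without the 2 arrays of narrow spread, so that lung CD103 was then lower.

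The MEK genes were ordered otherwise. Map2k1 was lowest in BMDC, at 8.51, below liver CD11b at 8.80, lung CD103 at 8.97 and lung CD11b at 9.04, and its largest gap was BMDC below lung CD11b at -0.54 ± 0.30 (limma adjusted p = 0.324). Map2k2 was highest in liver CD11b at 8.36, then lung CD11b at 8.27, BMDC at 7.95 and lung CD103 at 7.86. Lung CD103 minus liver was -0.49 ± 0.20 (limma adjusted p = 0.132), and BMDC minus liver was -0.40 ± 0.18 (limma adjusted p = 0.164).

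Of the 5 genes, 0 passed between BMDC and liver CD11b cells, where 13.5% of all genes did, and 3 had an unadjusted p under 0.05 there, a level that 27.6% of all genes reached. The other population pairs also gave 0 of 5, against 11.7% of all genes between BMDC and lung CD11b cells and 17.3% between BMDC and lung CD103 cells. Within the organs it was 2.12% between liver and lung CD11b cells, 5.64% between the lung populations and 11.5% between lung CD103 and liver CD11b cells. At an unadjusted p under 0.05 these 5 pairs held 0, 1, 0, 0 and 2 of the 5 genes, beside 23.2%, 28.1%, 20.4%, 13.9% and 25.8% of all genes. These counts changed with the setting. Without BRAF BMDC replicate 2, Nras and Araf passed between BMDC and liver. The share of all genes called in that fit is not given here. Without WT liver CD11b replicate 1, BMDC minus liver was 0.76 for Nras and 0.85 for Araf. Lung CD103 minus liver was then 0.91 for Araf.

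**Figure D3:**
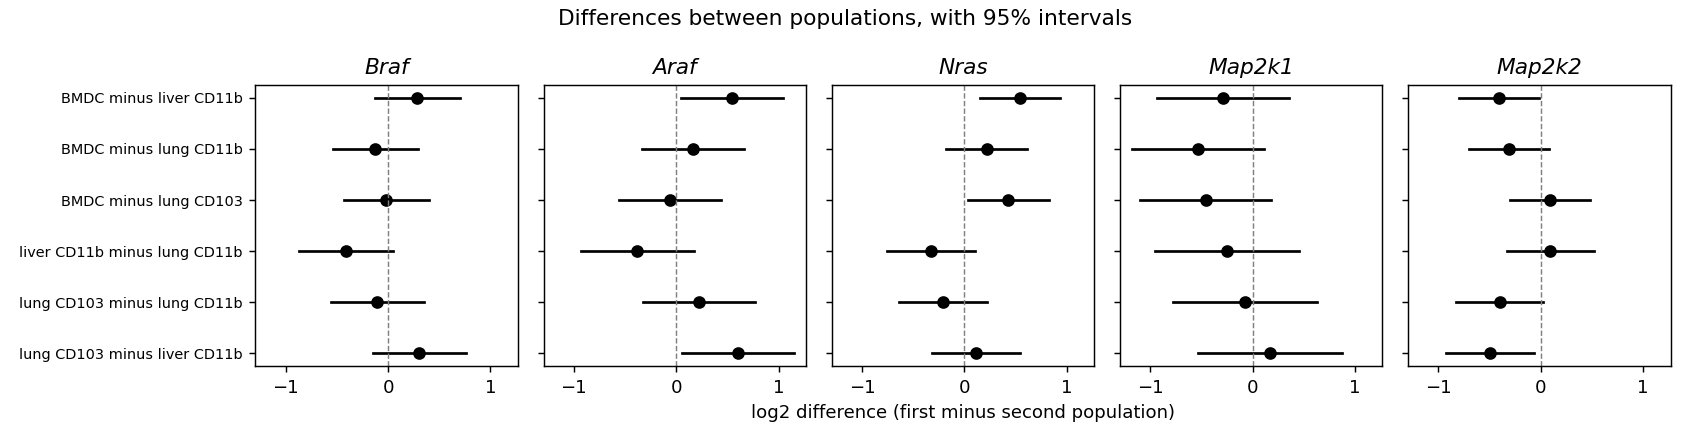
Differences between the 4 populations in log2 units (horizontal axis, first minus second population, genotypes averaged) for the 5 genes, with points for estimates and lines for 95% intervals before adjustment over genes. Nras in BMDC minus liver, at 0.54, is the difference with the smallest adjusted p, 0.0656.

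Other genes of the cascade were read by role from lists that were compiled with earlier results of these data in view. The list of other RAS, RAF and ERK isoforms named 8 genes. Only 5 of these were found with 1 gene symbol, so the rest were not read. Of these 5 related GTPases and kinases of parallel modules (Mras, Rras, Rras2, Map2k5 and Mapk7), 0 were called between genotypes in any population or in the mean. Rras2, an R-Ras subfamily GTPase, had the smallest p in the mean effect, at -0.66 ± 0.20 (limma adjusted p = 0.161). The list median in BMDC, -0.62, was -0.037 without the 2 arrays of narrow spread. Between populations, 2 of these 5 were higher in BMDC than in liver CD11b cells, where 13.5% of all genes were called, and 3 higher in BMDC than in lung CD103 cells (17.3%). Within the organs, 1 was lower in liver than in lung CD11b cells (2.12%) and 1 lower in lung CD103 than in lung CD11b cells (5.64%).

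Among 14 measured RAS exchange factors and adaptors, 1 was called in the mean effect. Rasgrp3, an exchange factor for RAS and RAP proteins that responds to diacylglycerol, was lower in BRAF by 0.84, a mean difference of -0.84 ± 0.17 (limma adjusted p = 0.0290). In liver CD11b cells it read 7.44 and 6.22 in WT and 4.99 and 5.05 in BRAF, with no overlap, as for 38.5% of all genes. In lung CD11b cells it read 8.96 and 8.61 in WT and 7.06 and 7.28 in BRAF, again with no overlap, as for 46.4% of all genes. In lung CD103 cells it read 9.96 and 10.5 in WT and 9.39 and 10.2 in BRAF. In BMDC it read 4.52 to 4.87 in WT and 5.09 to 5.44 in BRAF, the highest on the array of narrow spread. There the BRAF arrays lay higher, with no overlap, as for 16.1% of all genes. All BMDC values and both BRAF liver values lay below the 30th percentile of their arrays, the level of the filter on dim genes. The liver, BMDC and mean differences thus rest in part on values near the floor. The differences were -1.81 ± 0.35 in liver (limma adjusted p = 0.0516), -1.61 ± 0.35 in lung CD11b (0.0708), -0.44 ± 0.35 in lung CD103 (1.00) and 0.51 ± 0.29 in BMDC (0.737), and a difference between populations did not pass (limma F test adjusted p = 0.112). The call in the mean was lost in 10 of 18 fits that left out 1 array. Rasgrp3 also separated the populations, with lung CD103 above lung CD11b cells by 2.04 ± 0.25 (limma adjusted p = 0.000101). BMDC lay below lung CD103 cells at -5.05 ± 0.23 (limma adjusted p = 9.3e-10), a gap whose BMDC side is near the floor.

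The genes that oppose, hold or modify these kinases, or act downstream or in parallel, gave no genotype calls in the fit with all arrays at equal weight. Array weights, quantile normalization or leaving out the 2 arrays of narrow spread called a few of them. Of 9 RAS GTPase activating proteins 0 were called, with Rasal3 at a mean difference of -0.43 ± 0.15 (limma adjusted p = 0.257). Of 18 scaffolds and regulators of RAF and MEK, such as KSR proteins, 14-3-3 proteins and the chaperone Hsp90, 0 were called, with Hsp90aa1 at -0.49 ± 0.14 (limma adjusted p = 0.133). Of 11 genes that attach lipids to RAS, move it or turn it over, 0 were called, with Rabgef1 at -0.15 ± 0.13 (limma adjusted p = 0.917). In liver CD11b cells 11 of those 11 had positive differences, with a median of 0.55 beside 0.079 for all genes, and this was 9 of 11 with a median of 0.30 without the 2 arrays of narrow spread. Of 5 kinases that ERK activates 0 were called, with Mknk2 at -0.32 ± 0.17 (limma adjusted p = 0.646). Of 9 kinases of the parallel p38 and JNK modules 0 were called, with Mapk13 at -0.26 ± 0.098 (limma adjusted p = 0.334).

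Part of the list of ERK feedback and target genes was known from earlier results, so its counts and medians are not independent evidence of direction. Of 20 measured, 3 rose in BMDC (0.521% of all genes were called there), 1 in liver CD11b cells (0.215%), 0 in lung CD11b cells (0.338%) and 1 in lung CD103 cells (0.0846%). None was called lower with all arrays at equal weight, while in lung CD11b cells 2 were called lower with array weights and 1 without the 2 arrays of narrow spread. Those settings called 298 and 127 of all genes lower there, against 41. Dusp5, a phosphatase gene that feeds back on ERK, had the smallest p of the list in lung CD11b cells and is named after its values were seen. It read 9.66 and 10.5 in WT and 8.98 and 8.36 in BRAF, a difference of -1.42 ± 0.31 (limma adjusted p = 0.0715). Emp1, an epithelial membrane protein gene, read 7.58, 7.51 and 7.55 in WT and 9.41, 9.91 and 9.36 in BRAF BMDC, with all BRAF arrays above all WT arrays. It rose by 2.02 ± 0.19 there (limma adjusted p = 0.00011), by 1.76 ± 0.24 in liver CD11b cells (limma adjusted p = 0.0129) and by 1.52 ± 0.24 in lung CD103 cells (limma adjusted p = 0.0228). In lung CD11b cells it differed by 0.67 ± 0.24 (limma adjusted p = 0.440), with WT at 9.77 and 9.97 and BRAF at 10.6 and 10.4. For Emp1 a difference of the genotype effect between populations did not pass (limma F test adjusted p = 0.317). The mean rise of Emp1 was 1.49 ± 0.11 (limma adjusted p = 8.1e-06). In the same lung CD103 arrays the 11 measured macrophage markers all had positive differences, with 0 called, and their summed signal was 10150 to 11746 in WT and 14714 to 31101 in BRAF. Its part in the lung CD103 value was not tested, and 3 of 4 fits that left out 1 lung CD103 array lost that call.

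Etv1, an ETS transcription factor, read 7.42, 7.35 and 7.39 in WT and 9.52, 8.79 and 8.89 in BRAF BMDC. It rose by 1.68 ± 0.31 (limma adjusted p = 0.0230) and in the mean effect by 0.86 ± 0.18 (limma adjusted p = 0.0361), a call lost in 11 of 18 fits that left out 1 array. Fosl1, which encodes the AP-1 subunit FRA1, read 5.92, 6.01 and 6.07 in WT and 6.92, 6.93 and 6.89 in BRAF BMDC, a rise of 0.91 ± 0.18 (limma adjusted p = 0.0334). The groups did not overlap for any of these 3 genes in BMDC, as for 16.1% of all genes. A difference of the genotype effect between populations did not pass for Etv1 (limma F test adjusted p = 0.556) or Fosl1 (0.316). Each of the calls of Etv1 and Fosl1 in BMDC was lost in 5 of 6 fits that left out 1 BMDC array, and that of Emp1 in 0 of 6. A fit on the BMDC arrays alone, with replicate number as a term, ended all 3 of these calls. The limma adjusted p was then 0.0559 for Emp1, 0.0912 for Etv1 and 0.363 for Fosl1. The BMDC median of the 20 genes was 0.49 with 17 positive, beside 0.0034 for all genes and -0.044 for the 5 RAS, RAF and MEK genes. In liver it was -0.11 with 7 positive. In BMDC the summed signal of the 10 dendritic cell markers was also lower in BRAF, at 7925.7 to 23618 against 27397 to 28579 in WT, with 1 of 10 called lower, and its part in these values was not tested. The lowest BRAF sum was below WT for macrophage markers too, at 18096 to 30291 against 29160 to 29474, where the genotypes overlapped. The BRAF BMDC arrays include the 1 of narrow spread.

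**Figure D4:**
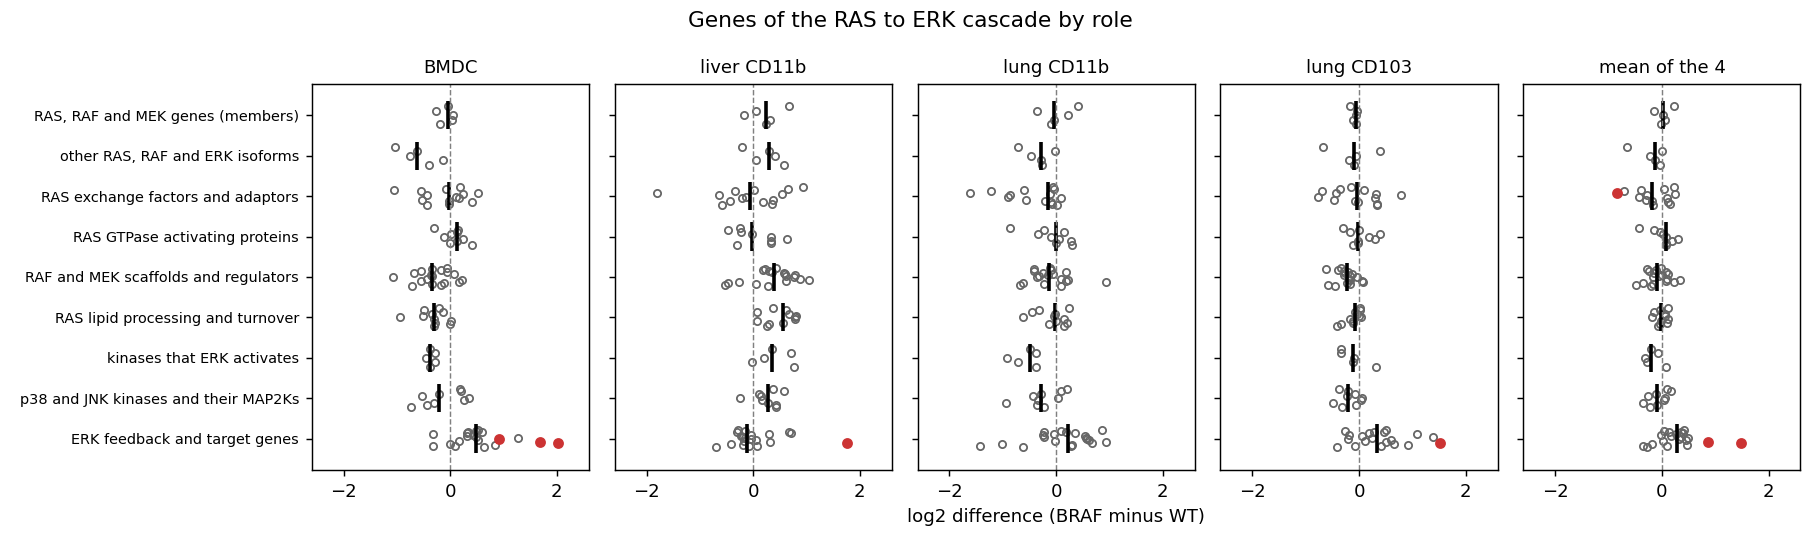
BRAF minus WT difference in log2 units (horizontal axis) of each measured gene of the cascade by role, in the 4 populations and in their mean, with filled red points for genes called by limma, open points for the rest and bars for list medians. The called genes are Emp1, Etv1 and Fosl1 in the row of ERK feedback and target genes and Rasgrp3 in the row of exchange factors, and the row of the 5 RAS, RAF and MEK genes holds none.

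The genes whose levels followed each of the 5 most closely over the 18 arrays are given as a description, since arrays share genotype, population and the narrow spread of 2 arrays. Braf was nearest to Foxj2 (Pearson r = 0.841), Ncoa6 (0.826) and Zdhhc9 (0.823). Araf was nearest to Kidins220 and Rnf185 (0.938 each) and Cramp1l (0.932). Nras was nearest to Chmp5 (0.905), Cul2 (0.898) and Eif1ax (0.895). Map2k1 was nearest to Stim2 (0.863), Tspyl1 (0.861) and Dhx8 (0.838). Map2k2 was nearest to Dok1 (0.899), Eif4e3 (0.894) and Ltbr (0.886). None of the 5 was among the 3 nearest genes of another.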

How the data were processed

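The deposited values were linear intensities per probe set on 1-colour Affymetrix arrays, and the sources used here do not say how the authors made them (background correction, summary, scaling). The array medians lay between 93.7 and 113.2. Values were turned to log2 with no further normalization of the deposited intensities. Of 24922 probe sets, 21425 carried 1 gene symbol, 1399 several and 2098 were not in the gene table. Where several probe sets shared a symbol (921 genes), the brightest on average was taken. Of the resulting 19752 genes, the 15365 tested exceeded the 30th percentile of an array on 2 or more of them.

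Group means of 8 groups were fitted with limma 3.58.1 (lmFit and eBayes, R 4.3.3) over all 18 arrays, p-values were adjusted by Benjamini-Hochberg over the 15365 genes, and genes under 0.05 were called. Code was tested on simulated data. Figures used matplotlib 3.10.9. The genes and lists were chosen with earlier results of these data known. Named were the 5 genes, listed genes called between genotypes (otherwise the one with the smallest p in the mean effect), the 3 nearest genes by correlation, and Itgax, Itgam and Itgae. The number of arrays limits precision.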

Additional observations from a re-analysis of the deposited data

How the results depend on the processing

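Normalization, centring, array weights, probe set choice, filters on dim genes, a trended robust fit, fits on the compared groups alone, a replicate block and leaving out each array were tried, and leaving out the 2 arrays of narrow spread was too. In each of these, 0 of the 5 genes were called between genotypes in any population, in the mean effect or in the F test. Of 995 differences for the 5 genes under an alternative, 903 kept their sign and side of the threshold, 83 changed sign and 9 passed the threshold. The cause was not tested for any of them. Several settings cannot change a sign here. Each of the 5 genes has 1 probe set, and filters, the trended robust fit and fits on the compared groups keep every estimate. Array weights keep the genotype estimates of the organ populations, whose groups hold 2 arrays of equal weight. The 903 thus include outcomes fixed in sign, and the 9 include fits that left 1 array in a group.

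After quantile normalization, Araf differed between genotypes by 0.018 in the mean, 0.024 in lung CD103, 0.029 in lung CD11b, -0.0067 in liver and 0.0247 in BMDC, Nras by 0.18 in BMDC, Map2k2 by -0.27 in liver, Braf by 0.096 in lung CD11b and Map2k1 by 0.012 in lung CD103. Between lung CD103 and liver, Nras was then at -0.045 and Map2k1 at -0.025, and 1 gene (Map2k2) was called there and 1 (Map2k2) between BMDC and liver. Median centring put Braf at -0.042 and Map2k1 at -0.034 in BMDC. Array weights put Araf at 0.041 in BMDC and 0.036 in the mean, and between BMDC and lung CD103 Braf at 0.072 and Araf at 0.12, and called 1 gene (Araf) between BMDC and liver and 1 (Araf) between BMDC and lung CD11b. Without the 2 arrays of narrow spread, Araf was at 0.11 in BMDC and -0.38 in liver, Map2k2 at -0.15 in liver, Braf at 0.055 and Araf at 0.087 between BMDC and lung CD103, and Nras at -0.099 between lung CD103 and liver. The share of all genes called between populations is not given for these settings. In the fit with all arrays at equal weight it was 13.5% between BMDC and liver. It was 11.7% between BMDC and lung CD11b and 11.5% between lung CD103 and liver.

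Leaving out each array in turn gave these ranges of BRAF minus WT where the sign changed. In BMDC they were -0.10 to 0.19 for Braf, -0.34 to 0.11 for Araf, -0.13 to 0.027 for Nras and -0.17 to 0.35 for Map2k1. In liver they were -0.38 to 0.87 for Araf, -0.38 to 0.051 for Map2k1 and -0.22 to 0.33 for Map2k2. In lung CD11b they were -0.30 to 0.24 for Braf, -0.24 to 0.051 for Araf and -0.25 to 0.71 for Map2k1. In lung CD103 they were -0.48 to 0.24 for Braf, -0.13 to 0.032 for Araf, -0.42 to 0.093 for Nras, -0.70 to 0.57 for Map2k1 and -0.24 to 0.15 for Map2k2. In the mean they were -0.037 to 0.14 for Braf, -0.18 to 0.14 for Araf and -0.15 to 0.17 for Map2k1. With groups of 2, the array left alone is assumed to vary like the other groups.

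Between populations, the ranges were -0.26 to 0.0095 for Braf in BMDC minus lung CD11b, -0.20 to 0.16 for Braf, -0.14 to 0.087 for Araf and -0.011 to 0.19 for Map2k2 in BMDC minus lung CD103, and -0.044 to 0.23 for Map2k2 in liver minus lung CD11b. They were -0.29 to 0.076 for Braf and -0.39 to 0.24 for Map2k1 in lung CD103 minus lung CD11b, and -0.099 to 0.33 for Nras and -0.15 to 0.49 for Map2k1 in lung CD103 minus liver. Without BRAF BMDC replicate 2, 2 of the 5 were called between BMDC and liver.

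The replicate block joined organ arrays of the same genotype and number, with a correlation of -0.061, and left Nras in liver at 0.69. The BMDC genotypes were instead compared in a fit on the BMDC arrays alone, with replicate number as a term across genotypes. With 1 array of each genotype per number, that fit keeps the differences by design, such as Map2k2 in BMDC at -0.27. Only the spread and the test can change. With either, 0 of the 5 genes were called between genotypes. The BMDC fit, which also leaves out the organ arrays, ended the calls of Emp1 (2.02, limma adjusted p = 0.0559), Etv1 (1.68, 0.0912) and Fosl1 (0.91, 0.363). With it, 14 genes of all those tested were called in BMDC against 80. The labels do not say what a number marks. Deviations from the group mean of WT and BRAF BMDC arrays of the same number correlated at 0.469, -0.231 and -0.399, so the numbers were not taken to pair the genotypes. Some same-number arrays of 1 genotype did deviate together, at 0.159 (WT) and 0.220 (BRAF) between the lung populations, at 0.211 and 0.205 between WT BMDC and lung CD11b, and at 0.353 and 0.363 between BRAF BMDC and liver. Others deviated oppositely, such as BRAF BMDC and lung CD103 at -0.226 and -0.360 and BRAF liver and lung CD103 at -0.282. WT BMDC and liver stood at 0.249 and 0.333, and the WT and BRAF lung CD103 arrays numbered 1 at 0.296. In groups of 2 arrays the deviations mirror each other, so such values are not independent. The same-number pairs thus had no single direction. With the block, 0 of the 5 genes were called between any populations. Over all alternatives, the limma adjusted p of the BMDC calls ranged from 3.42e-09 to 0.0559 for Emp1, 2.01e-06 to 0.139 for Etv1 and 6.29e-06 to 0.363 for Fosl1, and that of the mean effect from 3.48e-06 to 0.000216 for Emp1, 0.0142 to 0.112 for Etv1 and 0.0044 to 0.0913 for Rasgrp3. For Emp1 it ranged from 0.0115 to 0.266 in liver and from 0.00939 to 0.556 in lung CD103. Array weights called 1658 genes in BMDC against 80, among them 14 of the 20 ERK feedback and target genes as higher and 2 of the 5 related GTPases and kinases as lower, and 0 of the 5 RAS, RAF and MEK genes. They also called 2 exchange factors or adaptors higher and 1 lower, 1 GTPase activating protein higher, 1 lipid processing gene lower and 2 p38 or JNK kinases lower in BMDC. In lung CD11b cells they called 3 exchange factors or adaptors, 1 GTPase activating protein and 1 p38 or JNK kinase lower and 1 scaffold higher. Of all 15365 genes they called 71 higher and 298 lower there, against 11 and 41 at equal weight. Quantile normalization called 1 GTPase activating protein lower in the mean effect, where it called 155 of all genes lower against 77. Without the 2 arrays of narrow spread, 1 exchange factor or adaptor was called lower in liver, 1 in lung CD11b and 2 in the mean, with 1 p38 or JNK kinase lower in lung CD11b and 1 of the related GTPases and kinases lower in the mean. Of all genes, 25 were then called lower in liver, 127 in lung CD11b and 182 in the mean, against 11, 41 and 77.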
